A study of Mus musculus with 4 samples.

Results

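Interleukins and colony-stimulating factors (CSFs), the receptor chains that bind them and the SOCS proteins that shut their receptors off were followed in mouse MLL-AF9 leukaemic cells. Members were the rows of the deposited table whose symbol begins with Il and a digit or with Csf1, Csf2 or Csf3, together with Lif, Lifr, Osm, Osmr, Il6st, Socs1, Socs2, Socs3 and Cish. The rule took 92 of 18061 transcripts, which belong to 81 of 16545 gene symbols: 31 ligands, 3 soluble antagonists, 42 receptor chains, 4 feedback inhibitors and Il4i1, an amino acid oxidase that shares the naming but is no cytokine. Where a symbol had several transcripts, the one with the highest mean stood for it.

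Most of these receptors have no enzyme activity of their own. Ligand binding brings receptor chains together, JAK kinases bound to them phosphorylate STAT factors, and STATs switch on genes that include the SOCS inhibitors, which then block the receptor. Receptors for interleukin 1 and interleukin 17 signal instead through adaptor proteins to NF-kB, and CSF1R is a receptor tyrosine kinase that supports macrophages. Myeloid progenitors depend on CSFs and interleukin 3 for survival and growth.

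The cells came from bone marrow of C57BL/6 mice, carried the MLL-AF9 fusion, an oncogene of myeloid leukaemia, and were grown in liquid culture. Their genotype was Ring1a-/-, Ring1b f/f and Cdkn2a-/- in both groups, which by label leaves no RING1A or Cdkn2a product in any sample. The 2 EtOH samples received ethanol for 72 h and the 2 OHT samples received OHT, in common usage hydroxytamoxifen, for 72 h. The series title concerns how PRC1, the Polycomb complex whose ligases are RING1A and RING1B, maintains the identity of leukaemic cells. OHT was compared with EtOH. The labels name neither the recombinase nor its promoter, and effects of OHT itself and of a loss of RING1B cannot be told apart, since no OHT-treated cells lacking that allele were analysed here.

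The deposited table gives 1 mean per group. Whole reads of 2 libraries per group were solved from those means, and the libraries are called A and B within a group, with no link to the replicate numbers of the labels. Totals ran from 3841243 to 6255320 reads. Values per library are normalised reads, that is solved reads divided by the size factor of the library. The labels do not say whether a group's samples were separate cultures or animals, so the p-values reflect how far these 4 samples spread, possibly for technical reasons alone. Reads on the genes named in the genotype did not check the labels. Rnf2, which encodes RING1B, had 687 and 583 normalised reads in EtOH libraries A and B and 716 and 797 in OHT libraries A and B. Ring1, which encodes RING1A and is labelled as deleted in all samples, still had 49.8 and 84.6 normalised reads with EtOH and 148.7 and 93.8 with OHT. Cdkn2a, labelled as deleted too, had 59.7 and 37.8 with EtOH and 43.7 and 51.4 normalised reads with OHT on its transcript NM_009877, and its transcript NM_001040654 had 57 reads with EtOH and 64 with OHT. The labels do not say which exons were removed from any of the 3 genes, and the table does not show where in a transcript its reads lie. All 10 myeloid progenitor markers had reads in both groups. Their summed levels were 4134 and 5737 normalised reads with EtOH and 4961 and 4554 with OHT. The groups overlapped for 6 of the 10. Mpo had 18.2 and 160 with EtOH and 351 and 50.2 with OHT, and Elane 110 and 527 against 504 and 160. None of 4 measured T cell markers reached a mean of 20 in either group. Cd79b of B cells was at 83.3 with EtOH and 137 with OHT. Of 5 measured stroma markers, Col1a1 alone was called higher (8 reads with EtOH and 62 with OHT). Col1a2 and Cxcl12 had negative log2 fold changes (-1.63 and -0.81), and Pdgfra and Pdgfrb positive ones. Each of these 4 rested on 3 reads or fewer per group, so the list shows no general stromal rise. Of 3 eosinophil markers, Epx and Prg2 had both OHT libraries below both EtOH libraries, and Ccr3 overlapped.

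With OHT, members changed upwards or were not called. By the authors' deposited table, 10 of the 81 genes rose at an adjusted p under 0.05, where 3.94% of all symbols did, and none fell, where 2.02% of all symbols did. At an unadjusted p under 0.05 the authors' deposited table has 18 members higher and 0 lower, against 8.48% and 7.18% of all symbols. The 10 were 6 receptor chains (Il13ra1, Il10ra, Il6ra, Il4ra, Il6st and Lifr), 3 ligands of the interleukin 1 family (Il1a, Il1b and Il18) and the feedback inhibitor Socs3. By role, 6 of 42 receptor chains, 3 of 31 ligands, 1 of 4 feedback inhibitors and 0 of 3 antagonists rose in the authors' deposited table.

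The whole set leaned the same way. A positive log2 fold change was listed for 65 of 81 members against 51.6% of all symbols in the authors' deposited table. The median was 0.75 for members and 0.04 for all symbols, and by role it was 0.90 for receptors, 0.55 for ligands and 0.54 for feedback inhibitors, in the authors' deposited table. Both OHT libraries lay above both EtOH libraries for 40 of 92 member transcripts, where 26.4% of all transcripts did, and below them for 2, where 24.6% did. No member in those counts was left out for a low level, and 16 of the 81 had at most 3 reads in each group.

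Limma-voom on the solved reads fitted 44 of the 81 members and called 16 of them higher, where 9.72% of fitted transcripts were, and 0 lower, where 5.49% were. At an unadjusted p under 0.05 limma-voom had 25 members higher and 0 lower, against 16.5% and 14.8% of fitted transcripts. All 10 deposited calls were among the 16, and the other 6 were Csf1r, Csf2rb2, Il17ra, Il1f9, Il27 and Osmr. The fit took transcripts with at least 10 reads in 2 libraries. Il18 and Il27 had under 10 reads in each EtOH library. They were fitted only because they were high with OHT, so their calls add no support to the count. Lifr had 32 reads in EtOH library A and 7 in EtOH library B, so its place in the fit also needed an OHT library.

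**Figure D1:**
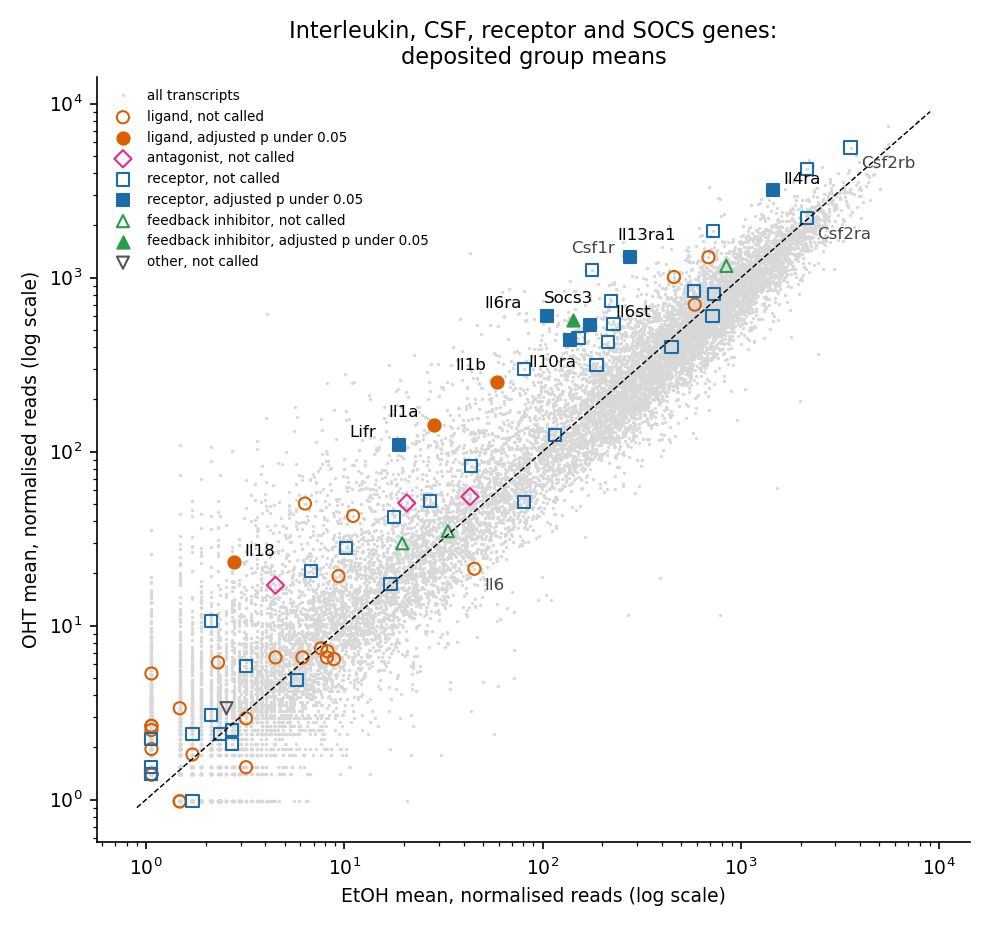
Mean normalised reads with EtOH (x axis) and with OHT (y axis) from the authors' deposited table, both on log scales, for the 81 member genes by role and, in grey, all 18061 transcripts; the dashed line marks equal means. The 10 filled symbols passed an adjusted p of 0.05 and lie above the line, from Il18 at 2.78 and 23.2 to Il4ra at 1458 and 3171.

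The feedback inhibitor Socs3 had the smallest adjusted p of the members. SOCS3 binds gp130 and a few related receptors and blocks their JAK kinases. Socs3 (NM_007707) had 151 and 132 normalised reads in EtOH libraries A and B and 636 and 510.2 in OHT libraries A and B. The OHT pair lay well above the EtOH pair, and each pair was tight. Its rise was 4.03-fold in the authors' deposited table (adjusted p = 8.92e-08), and limma-voom gave a log2 fold change of 2.004 ± 0.26 (SE, adjusted p = 0.00271). Without 1 library at a time the limma-voom value lay between 1.84 and 2.16. Each such fit has 1 residual degree of freedom: the group left with a lone library is assumed to vary like the other group, so its calls are weak evidence of stability.

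The other feedback inhibitors were not called. Cish, the inhibitor that STAT5 induces below interleukin 3 and CSF2 receptors, had 1071 and 616 normalised reads with EtOH and 920.5 and 1414 with OHT. Its groups overlapped, with OHT library B highest and EtOH library B lowest (adjusted p = 1 in the authors' deposited table). Among the omissions of 1 library, limma-voom called Cish higher without EtOH library A alone (0.90, adjusted p = 0.0321). Socs1, which acts on interferon and interleukin 4 receptors, was listed at 19.6 with EtOH and 29.8 with OHT, and Socs2, an inhibitor of growth hormone and related receptors, at 33.3 and 34.9 in the authors' deposited table, each with an adjusted p of 1.

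The upstream sequences of Socs3 and of the start of Cish are shown because both hold the letters that STAT dimers are known to bind. Sequences are from RefSeq on GRCm38.p6, not on the mm9 build of the submitters' notes. The search was for TTCNNNGAA, which reads the same on both strands, over 250 bases before to 50 after each annotated start. Capitals mark the matches in the 250 bases upstream of Socs3 (chr11:117969367-117969616, minus strand) and in 26 bases at the start of Cish (chr9:107296656-107296681, plus strand).
Socs3: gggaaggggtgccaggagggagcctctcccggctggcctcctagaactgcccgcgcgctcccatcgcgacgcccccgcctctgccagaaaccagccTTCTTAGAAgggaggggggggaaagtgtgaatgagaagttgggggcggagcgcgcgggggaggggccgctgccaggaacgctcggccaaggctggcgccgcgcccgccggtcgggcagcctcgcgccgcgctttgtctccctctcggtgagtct
Cish: gttTTCCTGGAAagTTCTTGGAAatc

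Matches were found in 8.3% of 32851 promoters of all genes and in 12 of 77 promoters of 63 members. Of 10 promoters of 9 members that rose, 1 held a match, that of Socs3. A match is a string of letters and not a measured site, and its absence says only that these letters are not in the window.

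Chains of the gp130 family made up 3 of the 6 receptors that rose. The family, ligands included, held 13 of the 81 members, and these 3 were its only calls in the authors' deposited table. IL6ST is gp130 itself, the signalling chain shared by interleukin 6, LIF, oncostatin M and other ligands. Il6st (NM_010560) had 252 and 92.4 normalised reads with EtOH and 577 and 485 with OHT. Il6ra (NM_010559), which binds interleukin 6 and hands it to gp130, had 150.1 and 57.3 with EtOH and 729.8 and 467 normalised reads with OHT. For both genes the ratio of EtOH library A to EtOH library B was larger than that between the OHT libraries, yet the groups did not overlap. The rises were 3.07-fold for Il6st (adjusted p = 0.0055) and 5.72-fold for Il6ra (adjusted p = 0.00388) in the authors' deposited table.

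Lifr (NM_013584), the chain that pairs with gp130 for LIF and also serves oncostatin M, rose from lower levels. It had 26.5 and 9.11 normalised reads with EtOH and 139 and 78.1 with OHT. The rise was 5.79-fold and had an adjusted p of 0.0347 by the authors' deposited table, the largest adjusted p among the called members. A second Lifr transcript (NM_001113386) was listed at 11.4 with EtOH and 21.8 with OHT in the authors' deposited table (adjusted p = 0.855), so reads of the gene are split between transcripts. Osmr, the specific chain for oncostatin M, had 128 and 31.2 normalised reads with EtOH and 383 and 209.9 with OHT, with no overlap. It was not called in the authors' deposited table (adjusted p = 0.249), and limma-voom gave a log2 fold change of 2.06 ± 0.53 (SE, adjusted p = 0.0294).

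The size of these differences moved with the EtOH library left out. The limma-voom log2 fold change of Il6st was 1.70 with all libraries, 2.51 when EtOH library A was left out and 1.07 when EtOH library B was. For Il6ra it was 2.57, 3.34 and 1.97, for Lifr 2.62, 3.46 and 1.99, and for Osmr 2.06, 3.19 and 1.18, in the same order. Osmr lost its limma-voom call without EtOH library B (adjusted p = 0.064), and those of Il6st, Il6ra and Lifr were made again in the 4 omissions, with the lone library assumed to vary like the other group. Across the 43 members with a mean of at least 20 in either group, 37 were higher in EtOH library A than in EtOH library B, against 57.2% of 10358 transcripts with such a mean.

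Ligands of gp130 receptors did not pass the test in the authors' deposited table. Osm, which encodes oncostatin M, a product of myeloid cells, had 871 and 500.0 normalised reads with EtOH and 1059.9 and 1561 with OHT. All 4 libraries thus held substantial Osm reads, and the OHT pair lay above (1.91-fold and adjusted p = 0.459 by the authors' deposited table; limma-voom adjusted p = 0.0548). When EtOH library A or OHT library A was left out, limma-voom called Osm higher. Il27, the p28 subunit of interleukin 27, was low, with 6.63 and 3.91 normalised reads with EtOH and 73.1 and 25.7 with OHT. It was listed at 7.95-fold by the authors' deposited table (adjusted p = 0.265), and limma-voom estimated 2.97 ± 0.75 (SE, adjusted p = 0.0263), which became 2.17 (adjusted p = 0.131) when OHT library A was left out and 3.65 when OHT library B was.

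Il6 was the member with the most negative log2 fold change, though not called. Il6, the inflammatory cytokine whose receptor rose, had 66.3 and 22.1 normalised reads with EtOH and 12.6 and 27.9 with OHT. The groups overlapped (log2 fold change -1.09, adjusted p = 0.787 in the authors' deposited table). With limma-voom it was -1.17 ± 0.62 (SE, adjusted p = 0.232), with a call only without EtOH library B (-1.83, adjusted p = 0.035) and -0.28 without EtOH library A. Lif was at most 5.88 normalised reads in any library.

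Receptor chains for interleukins 4, 13 and 10 also rose. IL4RA pairs with IL13RA1 to form a receptor that myeloid cells use for both interleukin 4 and interleukin 13. Il13ra1 (NM_133990) had 395 and 152 normalised reads with EtOH and 1495 and 1134 with OHT. Il4ra (NM_001008700) had 1808 and 1107 with EtOH and 3324 and 3015 normalised reads with OHT. Both partner chains were thus higher in each OHT library than in either EtOH library, 4.79-fold for Il13ra1 (adjusted p = 3.47e-05) and 2.17-fold for Il4ra (adjusted p = 0.00487) in the authors' deposited table. Il2rg, the common gamma chain that pairs with IL4RA in the other interleukin 4 receptor, had 879 and 577 normalised reads with EtOH and 699.6 and 904 with OHT, with overlap (adjusted p = 1 in the authors' deposited table). Its limma-voom log2 fold change was negative when EtOH library B (-0.14) or OHT library B (-0.042) was left out.

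Il10ra (NM_008348), the ligand-binding chain for the anti-inflammatory interleukin 10, had 185 and 87.2 normalised reads with EtOH and 448 and 429 with OHT. It rose 3.20-fold by the authors' deposited table (adjusted p = 0.000102). Its partner Il10rb, shared with interferon lambda and interleukin 22 receptors, had 716 and 445 normalised reads with EtOH and 785 and 885 with OHT and was not called (1.44-fold and adjusted p = 0.623 by the authors' deposited table). The limma-voom log2 fold change of Il10ra was 1.72 ± 0.33 (SE) and 2.32 without EtOH library A, and that of Il13ra1 was 2.33 ± 0.36 (SE), 3.08 when EtOH library A was left out and 1.72 when EtOH library B was. That of Il10rb was 0.54 with all libraries, 0.91 with a call when EtOH library A was left out and 0.22 when EtOH library B was. The ligands Il4, Il13 and Il10 were low, with at most 35.7 normalised reads in any library for the non-coding Il4 transcript NR_027491, 2.60 for the coding NM_021283, 9.12 for Il13 and 3.35 for Il10.

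**Figure D2:**
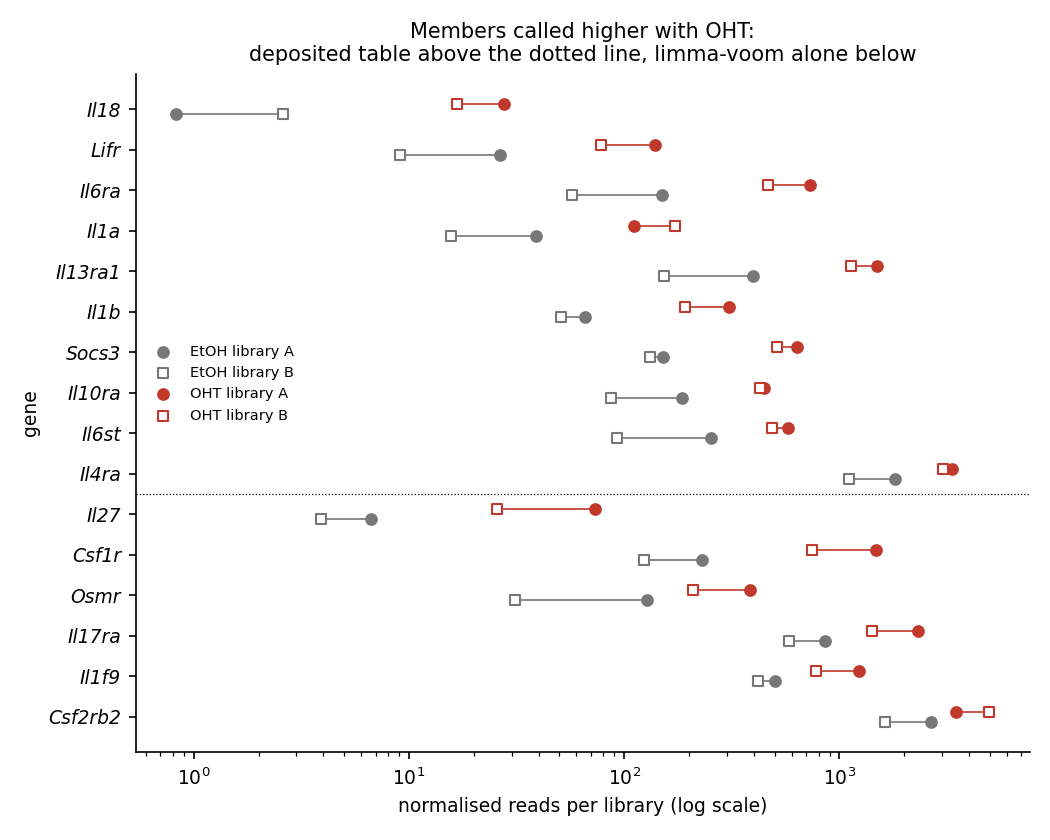
Normalised reads per library on a log scale for the 10 members called in the authors' deposited table (above the dotted line) and the 6 called by limma-voom alone (below it), with filled circles for library A, open squares for library B, grey for EtOH and red for OHT. In each row both OHT libraries lie to the right of both EtOH libraries, and in EtOH library A lies to the right of B except for Il18.

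Of the interleukin 1 family, the ligands Il1a, Il1b and Il18 rose. Interleukin 1 alpha and beta are inflammatory cytokines that act on the same receptor, and interleukin 18 is a related cytokine that drives interferon gamma production. Il1b (NM_008361) had 65.5 and 50.8 normalised reads with EtOH and 308 and 192 with OHT. Il1a (NM_010554) had 39.0 and 15.6 with EtOH and 111 and 172 normalised reads with OHT. In both the lowest OHT library exceeded the highest EtOH library, and the OHT library that was higher differed between the genes. The rises were 4.24-fold for Il1b (adjusted p = 0.0107) and 5.02-fold for Il1a (adjusted p = 0.0104) in the authors' deposited table. With limma-voom the values were 2.07 ± 0.36 for Il1b and 2.34 ± 0.48 for Il1a (SE), the latter 3.06 without EtOH library A, and called both in each omission of 1 library.

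Il18 (NM_008360) rested on few reads. It had 0.829 and 2.60 normalised reads with EtOH, 3 reads in all, and 27.7 and 16.7 with OHT, 48 reads in all. The ratio of reads was 15.1 with a 95% counting interval of 4.88 to 76.0, which covers counting error only, and the adjusted p was 0.0312 in the authors' deposited table. With limma-voom the values were 3.49 ± 0.77 (SE), 2.79 when EtOH library A was left out and 4.17 when EtOH library B was, and it lost the call without OHT library A (3.20, adjusted p = 0.0622). Il1f9, an epithelial and myeloid interleukin 36 ligand, had the highest level per kilobase of the family's ligands in both groups, with 502 and 417 normalised reads with EtOH and 1234 and 781 with OHT. It was not called by the authors' deposited table (2.19-fold, adjusted p = 0.159), and the limma-voom call (1.10 ± 0.26, SE, adjusted p = 0.0213) was lost without OHT library A (0.76, adjusted p = 0.235).

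Receptors and antagonists of the family were not called in the authors' deposited table. Il1r1, the signalling receptor for interleukin 1, had no EtOH read and 1 OHT read on its transcript. Il1r2, a decoy receptor, had 227 in each EtOH library and 759 and 319 normalised reads with OHT (2.37-fold and adjusted p = 0.594 by the authors' deposited table). The OHT libraries differed from each other more than either EtOH library from OHT library B. Il1rap, the accessory chain, was listed at 187 with EtOH and 315 with OHT in the authors' deposited table (adjusted p = 0.472). With limma-voom, Il1rap had a value of 0.78 with all libraries, 1.36 with a call when EtOH library A was left out and 0.33 when EtOH library B was. The receptor antagonist Il1rn, which blocks interleukin 1, was listed at 20.7 with EtOH and 50.7 with OHT (adjusted p = 0.349), and Il18bp, a soluble trap for interleukin 18, at 43.0 and 55.2 (adjusted p = 1) in the authors' deposited table.

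The CpG content of promoters ranged widely among the members that rose. A pair is printed to show that range, with CpG dinucleotides in capitals, each as the 250 bases before the RefSeq start on GRCm38.p6: Il6st (chr13:112463820-112464069, plus strand), with 26 CpGs, and Il1b (chr2:129371140-129371389, minus strand), with 2.
Il6st: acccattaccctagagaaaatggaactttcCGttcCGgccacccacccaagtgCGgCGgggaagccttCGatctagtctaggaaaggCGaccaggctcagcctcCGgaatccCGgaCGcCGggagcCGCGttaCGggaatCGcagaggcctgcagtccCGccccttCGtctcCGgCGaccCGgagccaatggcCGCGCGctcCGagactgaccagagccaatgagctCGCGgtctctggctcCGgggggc
Il1b: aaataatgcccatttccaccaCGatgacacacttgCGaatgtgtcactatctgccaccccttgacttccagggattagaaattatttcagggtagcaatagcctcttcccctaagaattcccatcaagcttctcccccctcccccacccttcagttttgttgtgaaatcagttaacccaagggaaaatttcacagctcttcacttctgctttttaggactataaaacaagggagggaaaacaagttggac

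Over the full window of 250 bases before to 50 after the start, Il1a held 5 CpGs, Il1b 3 and Il18 1, while Il6st held 33, Socs3 31, Il13ra1 28, Il6ra 25 and Il4ra 25. Lifr had 53 at one annotated start and 4 at another. The median was 25 over the 10 promoters of members that rose, 5 over the 67 promoters of members that were not called and 7 over all 32851 promoters. At least 10 CpGs were found in 6 of the 10 promoters, 18 of the 67 and 43.5% of all. The promoters are few and share genes, so these counts are a description. Members not called include some with at most 3 reads in each group, such as Il22 and Il5, and the sets were not matched for level. Among abundant members not called, Il3ra held 35 CpGs and Il7r 1.

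Receptor chains for CSF2 and interleukin 3 were among the most abundant members, and none was called in the authors' deposited table. Per kilobase of transcript, Csf2ra and Csf2rb had the highest group means of all members with EtOH and with OHT. With EtOH, Csf2ra had 1063 and 1256 normalised reads per kilobase, Csf2rb 834 and 665 and Csf2rb2 562 and 343. The EtOH values of Csf2ra lay above those of Csf2rb, and those of Csf2rb above those of Csf2rb2. Csf2rb2 had the third highest means, but with EtOH it did not differ beyond its spread from Il3ra (413 and 478 normalised reads per kilobase) or Il2rg (526 and 345). With OHT, Csf2ra had 1248 and 1139 normalised reads per kilobase and Csf2rb 1022 and 1328, so these 2 did not differ beyond their spread, and Csf2rb2 had 732 and 1047, overlapping with Csf2rb and with Il1f9 (749 and 474). Csf2rb and Csf2rb2 are close copies of each other, and reads of the pair may have been lost or exchanged.

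CSF2RA binds CSF2, CSF2RB is the signalling chain shared by CSF2, interleukin 3 and interleukin 5, and CSF2RB2 serves interleukin 3 alone. Csf2ra had 1966 and 2323 normalised reads with EtOH and 2307 and 2107 with OHT, overlapping (1.03-fold and adjusted p = 1 by the authors' deposited table). The limma-voom estimate for Csf2ra, a log2 fold change of 0.05, was -0.078 when EtOH library A was left out and -0.015 when OHT library A was. Csf2rb had 3976 and 3167 with EtOH and 4870.4 and 6328 normalised reads with OHT (1.57-fold and adjusted p = 0.251 by the authors' deposited table; limma-voom adjusted p = 0.0759). Csf2rb2 had 2664 and 1626 with EtOH and 3468 and 4961 normalised reads with OHT, with no overlap. Its fold was 1.96 by the authors' deposited table (adjusted p = 0.313). Limma-voom called Csf2rb2 (0.99 ± 0.27, SE, adjusted p = 0.037) but not when EtOH library B (adjusted p = 0.142) or OHT library B was left out (adjusted p = 0.103).

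Il3ra, the binding chain for interleukin 3, was the other abundant chain of this family and had a log2 fold change of -0.26. It had 667 and 771 normalised reads with EtOH and 499 and 699 with OHT, overlapping (adjusted p = 0.952 in the authors' deposited table). Il5ra, for interleukin 5, was listed at 17.1 with EtOH and 17.3 with OHT in the authors' deposited table. The ligands were near the floor: Csf2 had 11.6 and 2.60 normalised reads with EtOH and 3.36 and 7.81 with OHT, and Csf3, the neutrophil growth factor, at most 2.52 in any library. Il3 was not analysed here. Csf3r is represented by a non-coding RefSeq transcript (NR_045561) with at most 7.56 normalised reads in any library, and the coding form was not analysed here.

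Csf1r, the receptor of CSF1 and a macrophage gene, lay just outside the threshold. It had 229 and 124 normalised reads with EtOH and 1471 and 746 with OHT, so the lower OHT library lay far above the higher EtOH library. Its fold of 6.26 was larger than that of Lifr, just inside, but its adjusted p was 0.0666 in the authors' deposited table. Limma-voom called it (2.58 ± 0.39, SE, adjusted p = 0.00396) and did so in each omission of 1 library, with values of 2.10 to 3.08. Csf1, its ligand, had 17.4 and 2.60 normalised reads with EtOH and 37.8 and 45.8 with OHT (3.86-fold and adjusted p = 0.106 by the authors' deposited table). Limma-voom did not call Csf1 with all libraries (2.30 ± 0.69, SE), but did with TMM scaling (adjusted p = 0.041), when EtOH library A was left out (3.68, adjusted p = 0.00769) and when OHT library A was (2.43, adjusted p = 0.0357). It gave 1.23 when EtOH library B was left out (adjusted p = 0.152).

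Macrophage markers moved with these results. Of 8 measured markers of a list (among them Emr1, Cd68, Marco, Mrc1, C1qa, C1qb and C1qc), 5 rose in the authors' deposited table, and all 8 had both OHT libraries above both EtOH libraries. Their summed level was 2431 and 884 normalised reads with EtOH and 3834 and 5068 with OHT. Emr1 and Cd68 (509 and 220 with EtOH), neither called in the authors' deposited table, held most of the EtOH sums. The sum was thus higher in EtOH library A. C1qb and Marco (2.49 and 6.51 with EtOH) were lower in that library, and the other measured markers were higher in it. C1qb, a complement subunit of mature macrophages, had 0.829 and 1.30 with EtOH and 89.0 and 122 normalised reads with OHT, and Emr1, the F4/80 antigen, had 1882 and 634 with EtOH and 2375 and 3315. No macrophage marker was at 0 reads in either group. Of 8 late neutrophil markers, Mmp8 and Mmp9 were also called higher in the authors' deposited table, and the groups overlapped for the other 6. In bulk samples more cells of a type and more RNA per cell cannot be told apart, and the part of these markers in the cytokine receptor values was not tested.

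**Figure D3:**
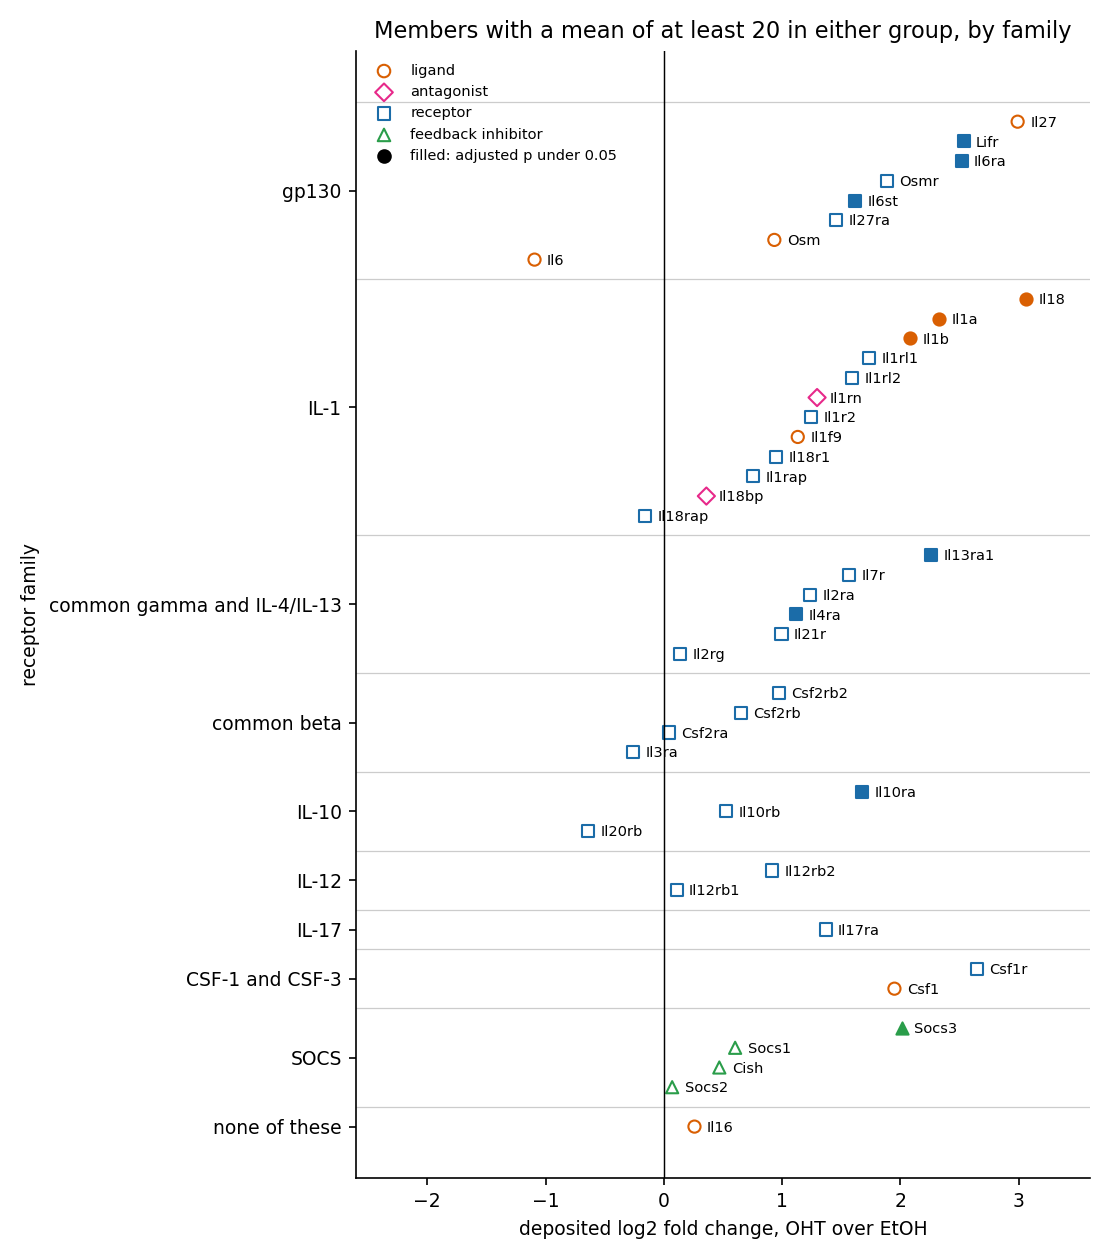
Deposited log2 fold change of OHT over EtOH (x axis) for the 43 members with a mean of at least 20 in either group, listed by receptor family, with symbols for role and filled symbols for an adjusted p under 0.05. Filled symbols appear in the gp130, interleukin 1, interleukin 4 and 13, interleukin 10 and SOCS rows; Il6, Il20rb, Il3ra and Il18rap are the members left of 0.

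Some receptors differed widely between the OHT libraries, and were chosen for description after their values were seen. Il1rl1, the interleukin 33 receptor of mast cells and basophils, had 324 and 117 normalised reads with EtOH but 307 and 1166 with OHT. Il7r, the interleukin 7 receptor chain of lymphoid cells, had 257 and 44.3 with EtOH and 198 and 697 normalised reads with OHT. OHT library B stood alone at the top for both, and OHT library A lay between the EtOH libraries. Neither was called in the authors' deposited table (adjusted p = 0.922 and 0.995), and limma-voom with all libraries gave 1.499 for Il1rl1 and 1.59 for Il7r, also not called. When OHT library A was left out the values were 2.51 and 2.58, but OHT then holds library B alone, so its calls there rest on the 1 library that stood apart. Il7r was also called when EtOH library A was left out (2.999, adjusted p = 0.0374).

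Mast cell and basophil markers had the same library at the top. Summed over the 6 markers measured, OHT library B had 3635 normalised reads, OHT library A 1535 and the EtOH libraries 2076 and 1915. Prss34, a basophil protease, had 9.12 and 5.21 with EtOH and 78.1 and 419 normalised reads with OHT, and Mcpt8, another, had 96.2 and 93.7 with EtOH and 85.7 and 325. No marker of the 6 was at 0 in a whole group, and Fcer1a was the lowest, with at most 4.47 in any library. Their part in the Il1rl1 and Il7r values was not tested. The reverse order was seen for Il21r, the interleukin 21 receptor, with 245 and 181 normalised reads with EtOH and 625 and 226 with OHT (adjusted p = 0.876 in the authors' deposited table). Among the omissions, limma-voom called Il21r (1.55) and Il1r2 (1.74) higher without OHT library B alone, which leaves OHT library A, the highest library for both, as the only OHT sample.

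**Figure D4:**
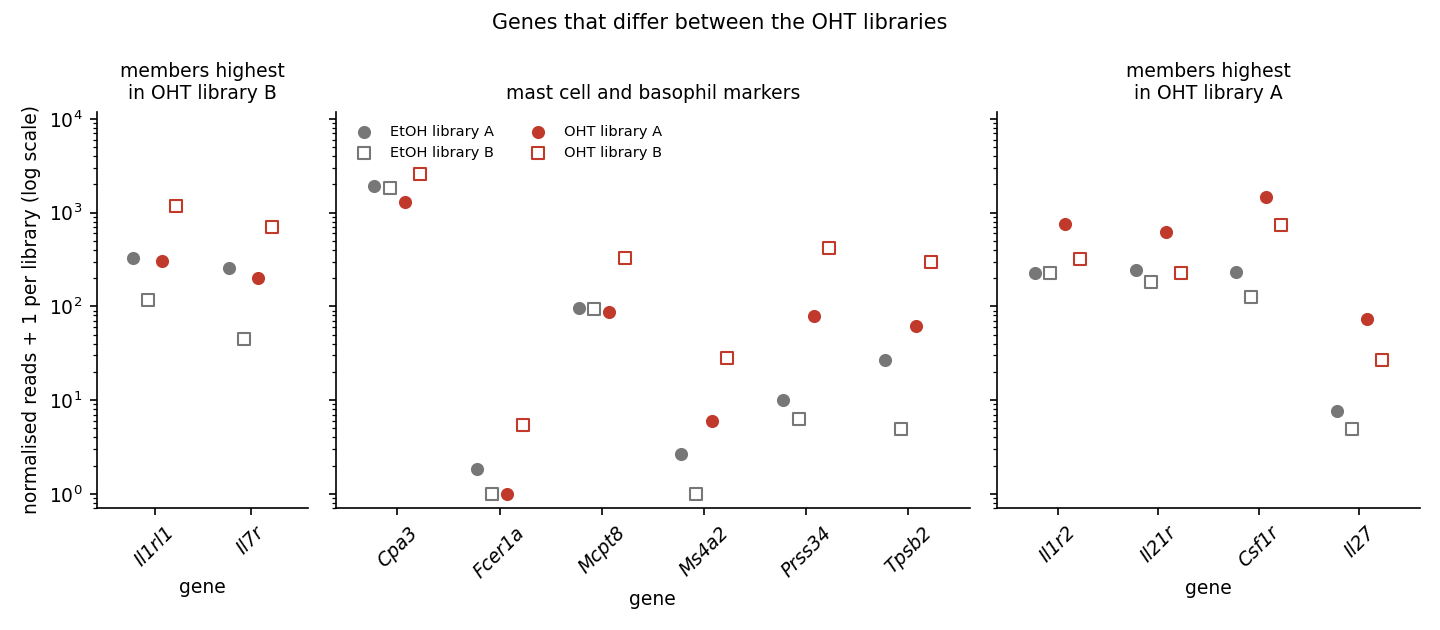
Normalised reads plus 1 per library on a log scale for Il1rl1 and Il7r (left), 6 mast cell and basophil markers (middle) and 4 members highest in OHT library A (right); circles are library A, squares library B, grey EtOH and red OHT. OHT library B is the highest library for Il1rl1, Il7r and each of the 6 markers.

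The interleukin 17 and interleukin 12 families had no call in the authors' deposited table. Il17ra, the shared interleukin 17 receptor chain, had 858 and 582 normalised reads with EtOH and 2308 and 1411 with OHT, without overlap. It was listed at 2.58-fold by the authors' deposited table (adjusted p = 0.152). Limma-voom called it (1.34 ± 0.28, SE, adjusted p = 0.0134), though not without OHT library A (0.98, adjusted p = 0.0566). The other chains Il17rb, Il17rc and Il17rd and the ligands Il17c, Il17d and Il17f had at most 7.81 normalised reads in any library. Il12rb1, shared by interleukin 12 and 23 receptors, was listed at 116 with EtOH and 125 with OHT (adjusted p = 1), and Il12rb2 at 43.6 and 82.3 (adjusted p = 0.677), in the authors' deposited table. Limma-voom called Il12rb2 higher when EtOH library A was left out (2.02 against 1.05, adjusted p = 0.0186). Il16, a chemoattractant made from a larger precursor, was listed at 585 with EtOH and 700.2 with OHT in the authors' deposited table (adjusted p = 1), and Il18rap, the signalling chain of the interleukin 18 receptor in the interleukin 1 family, at 447 and 399.9 (adjusted p = 1). The limma-voom log2 fold change of Il18rap was -0.17, with 0.33 when EtOH library A was left out and 0.14 when OHT library A was.

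The 16 members with at most 3 reads in each group were Il1f8, Il1r1, Il1rapl1, Il5, Il9r, Il10, Il12b, Il15, Il15ra, Il17f, Il17rb, Il17rc, Il22, Il23r, Il24 and Il31. At this depth a difference in them was not detectable.

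Other genes of the pathway were read from a list. Of 71 genes listed, 63 were measured, of which 2 rose and 0 fell by the authors' deposited table, against 3.94% and 2.02% of all symbols, so the pathway count is near the background. At an unadjusted p under 0.05, 8 were higher and 3 lower, against 8.48% and 7.18% of all symbols, and the median log2 fold change was 0.30. Epor, the erythropoietin receptor, had 5.80 and 6.51 normalised reads with EtOH and 47.9 and 84.8 with OHT (9.32-fold and adjusted p = 0.00631 by the authors' deposited table). Epor was thus higher in each OHT library than in either EtOH library. Of the other erythroid markers, Klf1, an erythroid factor, was listed at 12.1 with EtOH and 9.23 with OHT in the authors' deposited table. None of 4 JAKs, 7 STATs, 14 other negative regulators, 8 interleukin 1 and Toll adaptors, 8 other ligands and 9 STAT5 targets had a call in the authors' deposited table. Their counts at an unadjusted p under 0.05 were 0 for JAKs, 1 higher and 1 lower for each of STATs, negative regulators and adaptors, 1 higher for ligands and 2 higher for STAT5 targets.

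Limma-voom called 6 of 49 fitted pathway genes higher (among them Epor, Ccnd1, Clcf1, Irak3 and Ptpn1) and 1 lower, Stat4. These are 12.2% and 2.04% of them, against 9.72% and 5.49% of all fitted transcripts, so the share called higher is near the background. Epor had under 10 reads in each EtOH library and was fitted only because it was high with OHT. Clcf1, a ligand that signals through gp130 and LIFR, had 32.3 and 15.6 normalised reads with EtOH and 166 and 80.4 with OHT (adjusted p = 0.156 in the authors' deposited table; limma-voom adjusted p = 0.0185). Stat4, the factor below interleukin 12 receptors, had 129 and 80.7 with EtOH and 23.5 and 53.6 normalised reads with OHT (adjusted p = 0.105 in the authors' deposited table; limma-voom adjusted p = 0.0415). Single libraries moved these counts, to 12 higher and 0 lower without EtOH library A (14.1% and 9.48% of all fitted transcripts) and to 3 and 0 without OHT library A (7.01% and 1.17%).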

How the data were processed

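RNA-seq libraries of 2 EtOH and 2 OHT samples used the TruSeq RNA kit v2, per the labels' protocols, a kit that does not mark strand. TopHat, DESeq and mm9 appear in the submitters' processing notes without versions or roles, and the read counter is not given in the sources used here. The deposited signal columns are, per the file headers, base means of the groups. The deposited ratio and log2 columns equal the ratio of those means (to a relative 2.1e-08) and its log2. The authors deposited p-values and adjusted p-values; adjusting the former by Benjamini-Hochberg over 18061 transcripts gave the latter to within 2.63e-06. How the test was set is not given in the sources used here. The columns hold no samples outside the series.

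Each mean solved to 1 unique pair of whole reads, with 1 read added per library before division by size factors of 1.206 and 0.768 (EtOH A and B) and 1.191 and 0.896 (OHT A and B). Deposited folds of low genes are therefore understated. All of 2000 simulated means per group were recovered, and of means moved by up to 0.1% only 0.0997% and 0.144% solved. A call is an adjusted p below 0.05 among the authors' values. Solved reads were fitted with limma 3.58.1 (voom) in R 4.3.3, for 11338 transcripts with at least 10 reads in 2 libraries, with 2 residual degrees of freedom, Benjamini-Hochberg adjustment and the solved size factors. Tested on simulated data for this comparison (11071 transcripts), it recovered 2%, 18%, 78% and 100% of 1.5-, 2-, 4- and 8-fold changes, and 5.71% of its 105 calls were unchanged transcripts. The simulated transcripts were independent and had a set dispersion of 0.05. The simulation therefore lacks the shared differences between libraries seen here, and its rates do not give the error rate of the calls above. Figures used matplotlib 3.10.9. Alternatives were other thresholds and filters, limma-voom, TMM scaling and omission of each library. Lengths are of GENCODE transcripts matched by RefSeq accession (80 of 81 members); promoters matched by symbol for 63 of 81.

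Members, gene lists and tests were chosen with earlier results of these data known. Named genes are called members, members with a mean of at least 200, the 2 most abundant per role, myeloid growth factors with their receptors, members called by limma-voom alone and pathway genes that passed. Others are named to account for the member list or were chosen after their values were seen. Reads of overlapping genes and close copies cannot be told apart. Some genes within the counts are not reported here by name.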

Additional observations from a re-analysis of the deposited data

How the results depend on the processing

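The 10 members called higher in the authors' deposited table, where 3.94% of all symbols were, became 11 at an adjusted p under 0.1 and 6 under 0.01. They became 11 after a filter at a mean of 20 in either group with the p-values adjusted again. Shares of all symbols were not computed for these alternatives. Limma-voom called 16 higher, 18 with TMM scaling and 24 without a filter on low counts. The shares of all fitted transcripts called higher were 9.72%, 10.9% and 9.11% in the same order. Without 1 library at a time limma-voom called 14 to 23 higher (17 without OHT library B) and 0 to 1 lower; the lower ones were Il20rb without EtOH library A and Il6 without EtOH library B. Of the 10 deposited calls, limma-voom kept all 10 in those settings except Il18 without OHT library A; in the omissions the spread of a lone library is borrowed from the other group. The cause was not tested. The shares of all fitted transcripts called higher and called lower also moved in the omissions, and both were largest without EtOH library A. The highest member count came from that omission, so it cannot be read as specific to members. The median log2 fold change of members, 0.75, was 1.13 over members with a mean of at least 20 in either group. That of all symbols with such a mean was -0.09. Csf1, Il18, Il1rl2, Il27, Il27ra, Il2ra, Lifr and Socs1 passed this filter through OHT alone. The filter thus favours positive values among members, in this median and in the filtered count above. The member median was 0.25 with a pseudocount of 10 added to each mean, 0.70 over all member transcripts and 0.54 to 0.90 without 1 library at a time. Pathway genes called numbered 2 in the authors' deposited table, 4 at an adjusted p under 0.1 and 7 by limma-voom. Of the named genes 3 changed sign in 6 of 241 alternative values, none of them called: Csf2ra (-0.078 and -0.015 without EtOH library A and OHT library A), Il18rap (0.33 and 0.14 without the same libraries) and Il2rg (-0.14 and -0.042 without EtOH library B and OHT library B). The unfiltered limma-voom values of single genes were added after seeing the data. No paired analysis was possible because the table's columns carry no replicate numbers. With totals of 3841243 to 6255320 reads, genes at a few reads could not be compared.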
